A study of Mus musculus with 21 samples.

Results

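The copy number of mouse chromosome 8 was read from 4808 probes, out of 96471 array probes placed on the chromosomes, in 21 liver tumours. All probes that are not controls and whose position lies on chromosome 8 were taken, and each array carried up to 2829 of them, spread from base 3111085 to base 131709052 of the mm9 build. Chromosome 8 was chosen by its measured levels in these tumours and by their difference between the groups, and its variation along its length was part of that choice, so all of these are given as descriptions, without a test. Group comparisons of its windows and genes rest on the same values, and nothing is read from how many of them passed an unadjusted threshold.

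The tumours came from C57BL/6 mice kept for 12 months on CD-HFD, a diet rich in fat and deficient in choline that brings on non-alcoholic steatohepatitis (NASH). In the anti-PD1 group, 12 tumours came from 7 mice that were also given anti-PD1, an antibody against the inhibitory T cell receptor PD1, for 8 weeks. In the CD-HFD group, 9 tumours came from 7 mice on the diet without the antibody. DNA of each fixed, paraffin-embedded tumour was hybridized against a reference pool, which the labels name as liver tails, and each value below is the log2 ratio of tumour over reference after centring on the median of the array. The value 0 marks this median, and how many copies it stands for was not measured.

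The leading number of a sample name was read as the mouse. In the series text each tumour counts as a separate mouse, which would give n = 12 and n = 9. By the reading used here, 3 anti-PD1 mice and 2 CD-HFD mice gave several lesions, and means ± SD are over the mean of each mouse, with n = 7 mice in each group. Fitted differences come from all 21 tumours with the mouse as a random block, so they can differ from the difference of these means. The p-values measure only the spread between these samples. The arrays lay on 3 slides with 2 probe designs, slide 1 carrying one design and slides 2 and 3 the other. Tumour-channel spots on chromosome 8 were well above background in 88.8 to 100% of cases in 19 tumours, against 59.3% in mouse 608 lesion 1 and 76.3% in mouse 1770 lesion 1. The noise of single probes, from differences between neighbours, was 0.41 to 0.68.

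Array comparative genomic hybridization compares the amount of DNA of a tumour with that of a reference at each probe, so that gained stretches read above and lost stretches below the middle of the array. Tumours gain or lose whole chromosomes through faulty segregation and smaller stretches through breakage and repair. The ratios of such arrays also carry a wave that follows the GC content of the genome, which can resemble gains and losses. In a bulk tumour the share of tumour cells that carry a change and the share of normal cells in the tissue cannot be told apart.

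The probes that follow, shown with G and C in capitals, come from the stretches on which the description along the chromosome turns, and all were carried by both designs. A probe between genes, at chr8:53265603-53265662 (mm9, plus strand), lies in the window with the highest median.
A_67_P06513072: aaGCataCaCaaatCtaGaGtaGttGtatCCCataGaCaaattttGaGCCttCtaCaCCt
From the window with the lowest median come a probe in an intron of Banp, at chr8:124543963-124544022 (mm9, plus strand), and one in an intron of Zfp469, at chr8:124640399-124640458 (mm9, plus strand).
A_67_P06668360: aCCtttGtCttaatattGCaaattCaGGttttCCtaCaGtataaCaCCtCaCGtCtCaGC
A_53_P163711: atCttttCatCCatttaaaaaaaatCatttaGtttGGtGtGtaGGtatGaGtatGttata
The proximal end is shown by a probe in a coding exon of the chemokine gene Ccl25, at chr8:4349787-4349840 (mm9, plus strand), and one in an intron of Zfp958, at chr8:4621825-4621879 (mm9, plus strand).
A_53_P149690: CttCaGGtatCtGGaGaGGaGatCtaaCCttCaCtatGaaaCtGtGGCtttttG
A_53_P165135: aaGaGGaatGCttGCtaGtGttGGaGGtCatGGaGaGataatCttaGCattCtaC
Just beyond it lie a probe in an intron of Shcbp1, at chr8:4755327-4755386 (mm9, plus strand), and one between genes, at chr8:5022511-5022570 (mm9, plus strand).
A_53_P145033: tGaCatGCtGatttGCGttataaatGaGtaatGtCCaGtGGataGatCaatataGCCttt
A_67_P01664036: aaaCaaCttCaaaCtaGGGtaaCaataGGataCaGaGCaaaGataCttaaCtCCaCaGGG
The feature at each probe is that of RefSeq at the exact match of its sequence in GRCm38. The GC content of the 50 kb around the match was 35.3% for the probe of the highest window and 51.6% and 51.7% for those of the lowest, although the probes of the lowest window themselves held 38.3% and 25% G and C. The median over the 21 tumours was 0.77 for the first probe, above 0 in 20 of 21 tumours, and -0.12 and -0.37 for the probes in Banp and Zfp469. It was -0.49 in Ccl25 and -0.60 in Zfp958, both below 0 in 21 of 21 tumours, then -0.14 in Shcbp1 and 0.87 at the last probe, which was above 0 in 21 of 21 tumours. After the GC correction described below, the median turned to 0.20 in Banp, above 0 in 18 of 21 tumours, and was -0.57 in Zfp469. It was then 0.49 at the first probe, -0.23 in Ccl25, -0.52 in Zfp958, -0.36 in Shcbp1 and 0.80 at the last. Levels of single probes are not compared with each other here, and the levels that follow are means over 2596 to 2829 probes.

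Chromosome 8 was gained as a whole in 1 tumour and lost as a whole in 1 other. In mouse 612 lesion 2 (anti-PD1) its level was 0.27, the highest of the 20 chromosomes of that tumour, followed by chromosome 1 at 0.24. In mouse 1770 lesion 1 (CD-HFD) its level was -0.22, close to the lowest chromosome of that tumour, chromosome 13 at -0.22. The other 19 tumours stayed within 0.2 of the middle of the array, and 16 of the 21 lay between -0.059 and 0.053. A threshold of 0.2 in either direction, which serves here to call gains and losses, was passed by chromosome 8 in 2 of 21 tumours, against 9.05% of the 420 chromosome levels of all tumours.

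Among the anti-PD1 tumours the level was 0.27 in mouse 612 lesion 2, 0.14 in mouse 608 lesion 6 and 0.053 in mouse 612 lesion 5. It was 0.035 in mouse 2116 lesion 1, 0.031 in mouse 2094 lesion 2, -0.0055 in mouse 608 lesion 3 and -0.0086 in mouse 2094 lesion 1. It was -0.018 in mouse 2097 lesion 2, -0.022 in mouse 2094 lesion 3, -0.029 in mouse 604 lesion 1, -0.049 in mouse 1109 and -0.13 in mouse 608 lesion 1. The 3 tumours farthest from 0 in this group were thus lesions of only 2 mice, 608 and 612. Among the CD-HFD tumours the level was 0.10 in mouse 2064 lesion 1, 0.019 in mouse 2115 lesion 2, -0.0052 in mouse 2085 lesion 1, -0.021 in mouse 822 and -0.022 in mouse 2067 lesion 2. It was -0.046 in mouse 1770 lesion 4, -0.056 in mouse 2064 lesion 2, -0.059 in mouse 2088 lesion 1 and -0.22 in mouse 1770 lesion 1. The groups overlapped over most of their range.

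**Figure D1:**
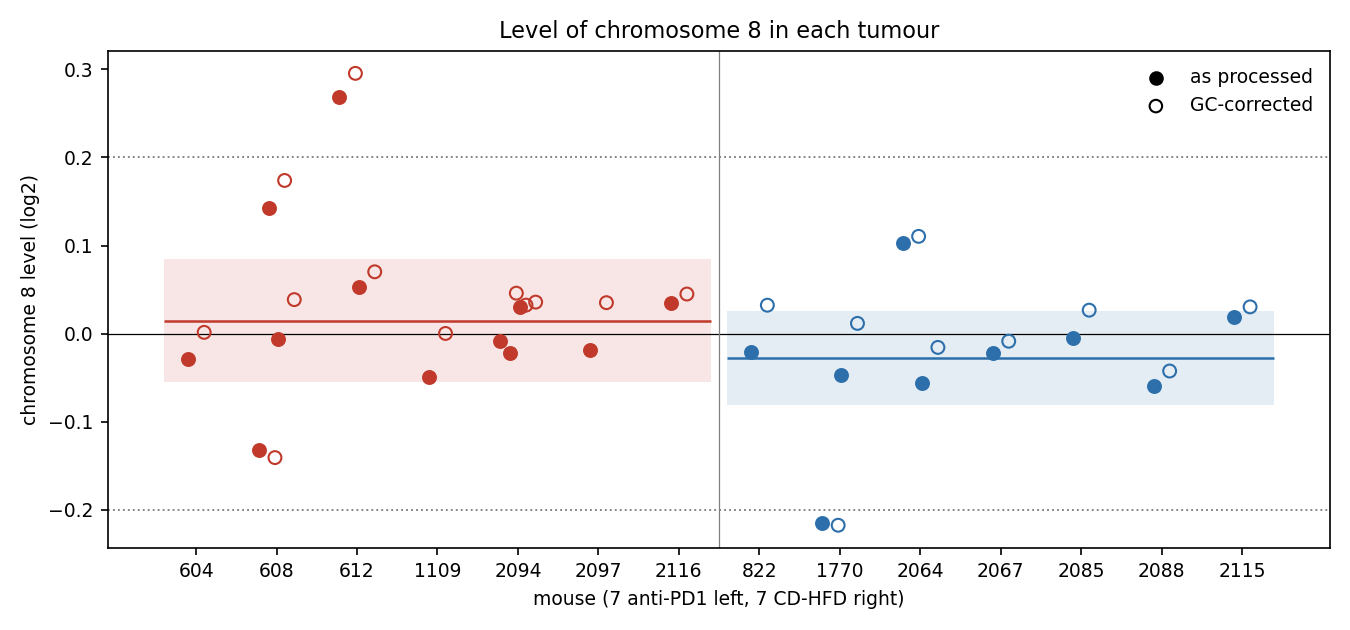
Level of chromosome 8 (log2 ratio of tumour over reference, mean over its probes) in each tumour, by mouse, as processed (filled) and after GC correction (open); lines and bands are the mean ± SD of 7 mice as processed, and dotted lines mark ±0.2. Mouse 612 lesion 2 lies at 0.27 and mouse 1770 lesion 1 at -0.22, and the rest stay within the dotted lines.

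A correction for GC content, fitted on each array to the base composition of single probes and of their surroundings (50 kb), left both calls in place. Mouse 612 lesion 2 moved from 0.27 to 0.30 and mouse 1770 lesion 1 stayed at -0.22. Mouse 608 lesion 6 read 0.17, mouse 2064 lesion 1 0.11 and mouse 608 lesion 1 -0.14, and the other 16 tumours lay between -0.042 and 0.070. Tumours above 0 numbered 7 of 21 as processed and 16 of 21 after the correction, so the side of 0 on which a tumour with a small level falls depends on this step. With normexp background correction both levels were nearer to 0 and under the threshold, at 0.17 in mouse 612 lesion 2 and -0.12 in mouse 1770 lesion 1. The loss was also just short of it in the authors' loess-normalized ratios, at -0.198, and on probes common to both designs, at -0.195, and past it when centred without chromosome 8, at -0.223. In mouse 612 lesion 2 these settings gave 0.29 each, and probes well above background gave 0.23.

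The gain in mouse 612 lesion 2 ran along the whole chromosome. As processed, 108 of its 110 windows of 1 Mb lay above 0, from -0.042 to 0.68, and segments called as gains covered 83.1% of the chromosome. Its proximal, central and distal stretches of 42.9 Mb each read 0.28, 0.34 and 0.20, and after GC correction 0.27, 0.33 and 0.28. With the correction the chromosome formed a single gained segment, 100% of its length, with a mean of 0.30. The other lesion of this mouse, lesion 5, read 0.053 and had 0% gained.

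The loss in mouse 1770 lesion 1 was as even. Only 5 of 110 windows lay above 0, the lowest at -0.55 and the highest at 0.20. The stretches read -0.24, -0.18 and -0.23 from proximal to distal, and 1 lost segment covered 100% of the chromosome both as processed and after GC correction. This array had the second lowest share of spots well above background, 76.3%. On probes well above background the level was -0.237, against -0.215 on all probes. Mouse 608 lesion 1, with the lowest share at 59.3%, read -0.13 with 1 segment and no call.

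Mouse 608 lesion 6 lay between these and the middle, at 0.14, with 89 of 110 windows above 0 and 35.9% of the chromosome in gained segments. After GC correction 105 of its 110 windows lay above 0, the same stretches read 0.15, 0.22 and 0.15, and 0% was called, as its single segment remained below 0.2. This tumour had 6 of 20 chromosomes at 0.2 or more and 4 at -0.2 or less, against 2 and 0 in mouse 612 lesion 2 and 1 and 3 in mouse 1770 lesion 1.

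**Figure D2:**
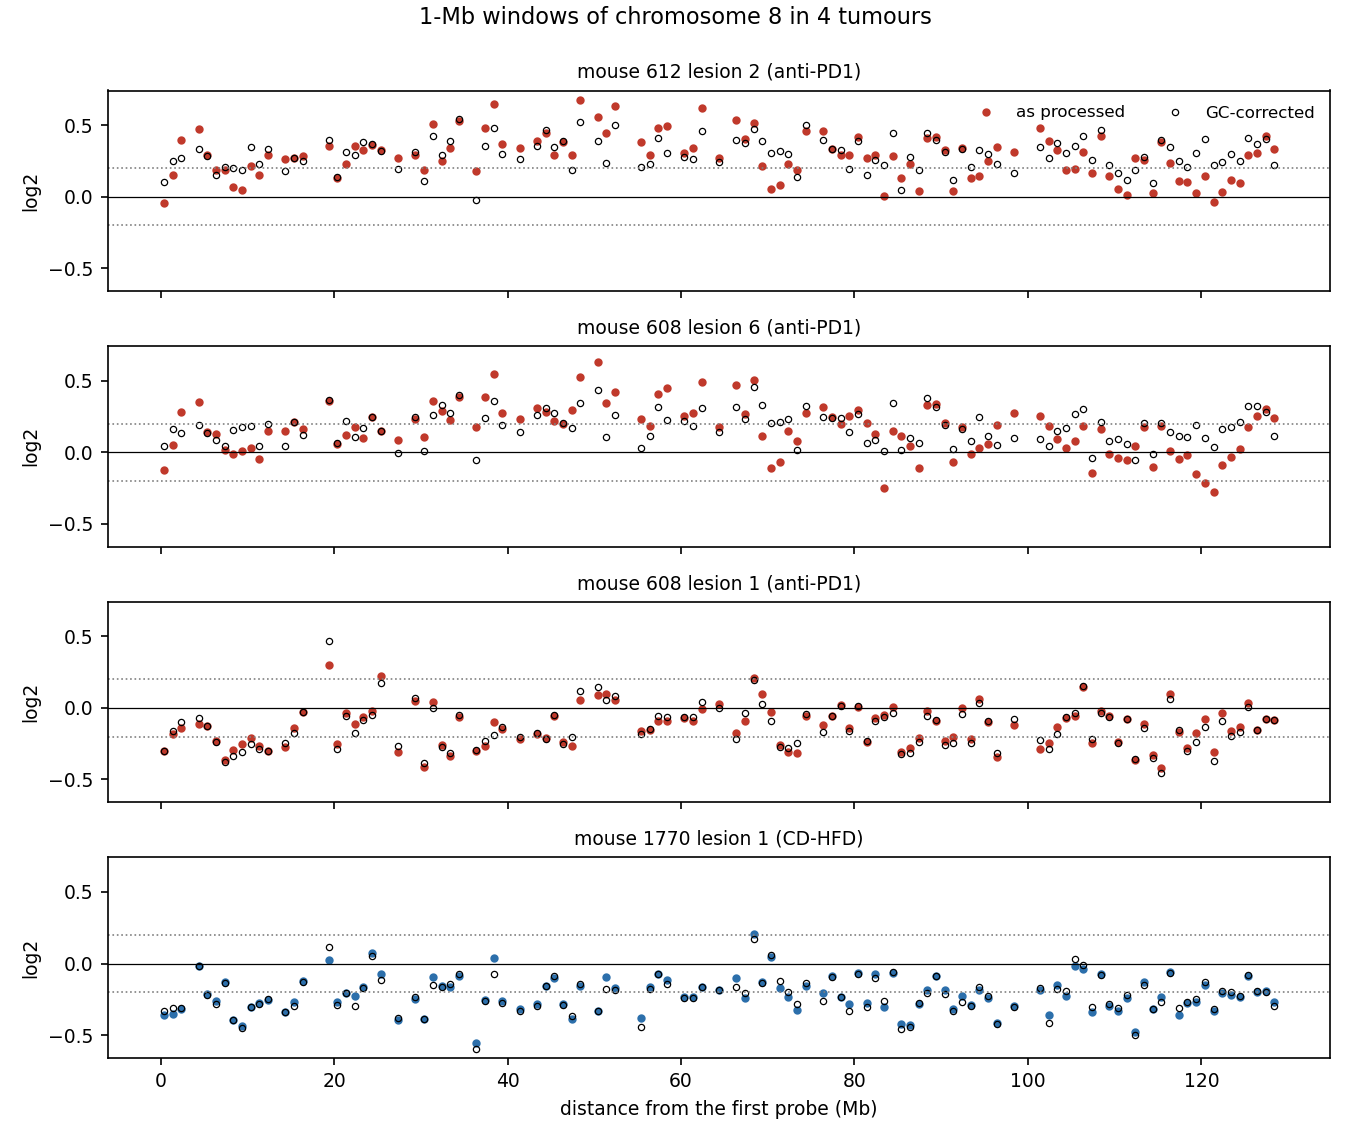
Means of 1-Mb windows of chromosome 8 (log2 ratio) against the distance from the first probe (Mb) in 4 tumours, as processed (filled) and after GC correction (open), with dotted lines at ±0.2. Nearly all windows of mouse 612 lesion 2 lie above 0 (108 of 110) and nearly all of mouse 1770 lesion 1 below it (5 of 110 above), with no step within the chromosome after the correction.

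Lesions of one mouse could differ in chromosome 8. In mouse 608, lesion 6 exceeded lesion 1, on the same slide, by 0.27, with 103 of 110 windows higher, and lesion 3 lay between them. In mouse 612, lesion 2 exceeded lesion 5 by 0.22, on different slides, with lesion 5 higher in only 9 of 110 windows. In mouse 1770, lesion 4 exceeded lesion 1, on the same slide, by 0.17, with 89 of 110 windows higher, and after GC correction by 0.23, with 109 of 110 higher. The lesions of mouse 2064 differed by 0.16 on the same slide. The 3 lesions of mouse 2094 lay within 0.052 of each other, and after the correction between 0.032 and 0.046. Over the 9 pairs of lesions from one mouse the median absolute difference was 0.15, and over the 201 pairs of tumours from different mice it was 0.068, with the largest differences at 0.27 and 0.48. Of the 9 pairs, 3 include mouse 608 lesion 1 or mouse 1770 lesion 1, the arrays of low detection, whose part in these differences was not tested. These pairs share tumours, so the values are a description, with no test.

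By mouse, the level of chromosome 8 was 0.015 ± 0.070 (SD, n = 7 mice) in the anti-PD1 group and -0.028 ± 0.053 (SD, n = 7 mice) in the CD-HFD group. The difference of 0.043 was smaller than the SD of either group. After GC correction the means were 0.047 ± 0.063 and -0.0025 ± 0.054, a difference of 0.049. The difference was 0.13 within slide 1 (3 mice of each group), 0.0061 within slide 2 (3 mice of each) and 0.028 within slide 3 (4 anti-PD1 mice and 1 CD-HFD mouse). After GC correction these differences were 0.13, 0.028 and 0.0039, in the same order. Slide 1 held mouse 612 lesion 2 and mouse 1770 lesion 1, and the difference over all slides was 0.018 without mouse 612 and 0.025 without mouse 1770. With each tumour taken as a separate mouse it was 0.056. Without the 2 tumours of low detection it was 0.040.

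Along chromosome 8 the tumours shared a profile that rose and fell by more than most whole-chromosome levels. The median over the 21 tumours had an SD of 0.18 across the 110 windows, the 4th largest of the 20 chromosomes. It was highest at 53 to 54 Mb, at 0.48, where 20 of 21 tumours lay above 0 and mouse 1770 lesion 1, at -0.33, was the exception. The lowest was 124 to 125 Mb, at -0.31, where 0 of 21 tumours lay above 0, with values from -0.59 to -0.020.

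This profile followed GC content, which ranged from 35.7 to 52.2% over the windows. The correlation of the median profile with GC content across the 110 windows was -0.80 (Pearson's r) and -0.81 (Spearman's rho), the 2nd most negative of the 20 chromosomes. These windows share arrays and reference, so the correlation is a description. In the 20 windows of lowest GC content (35.7 to 39.5%) the median level was 0.25, and in the 20 of highest (46.9 to 52.2%) it was -0.17. After GC correction both were 0.033, r was -0.070, and the SD of the profile was 0.10, or 57.3% of its former value. The window at 124 to 125 Mb moved from the lowest to 0.059, whereas 53 to 54 Mb remained the highest, at 0.27. Only 7 to 8 probes of an array lie at 53 to 54 Mb, so its value in a single tumour rests on few probes.

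**Figure D3:**
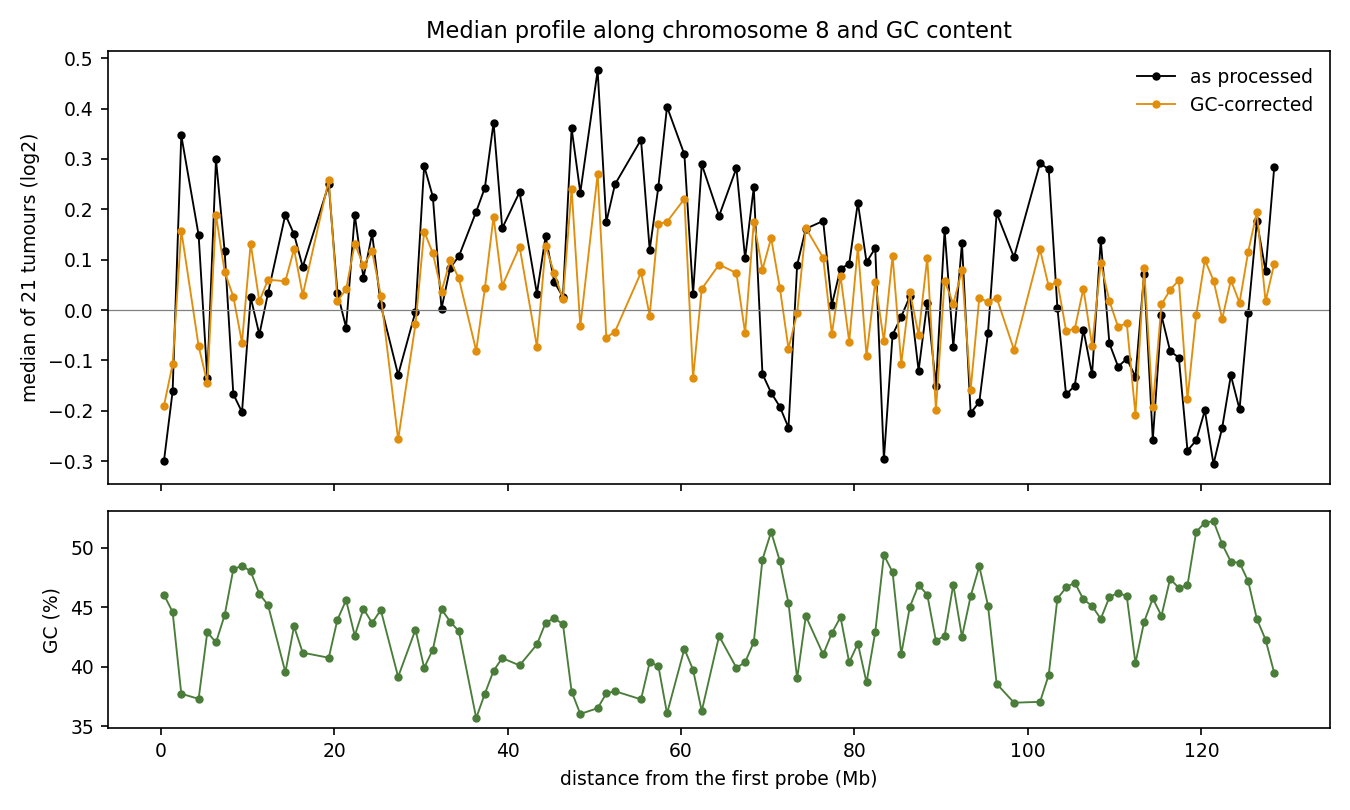
Median of the 21 tumours in 1-Mb windows of chromosome 8 (log2 ratio) as processed (black) and after GC correction (orange), above the GC content of each window (%), against the distance from the first probe (Mb). Windows of low GC content lie high and windows of high GC content low as processed, with medians of 0.25 and -0.17 in the 20 lowest and 20 highest, and both at 0.033 after the correction.

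The strength of the wave differed between tumours. The correlation of a tumour's windows with GC content was between -0.88 and -0.37 in 19 tumours, and 0.018 in mouse 608 lesion 1 and 0.084 in mouse 1770 lesion 1, which were the 2 arrays of low detection. In 6 tumours of 5 mice, namely 2094 lesions 1 and 3, 2097 lesion 2, 608 lesion 3, 1109 (anti-PD1) and 822 (CD-HFD), 26.96 to 33.3% of chromosome 8 was called gained and 7.6 to 11.8% lost, although their levels were only -0.049 to -0.0055. All 6 lay on slides 2 and 3. Each held a long segment with a mean of 0.23 to 0.29, starting between bases 32431296 and 38482047 and ending between 72295029 and 72371061. The GC content of the 25 windows within all 6 of these segments was 39.6% on average, against 44.4% in the other windows. After GC correction 0% of chromosome 8 was gained in all 6. They were picked as the tumours with over 20% gained and over 5% lost. On slide 1, gained segments over the same stretch were called in mouse 608 lesion 6 (from base 30658210, mean 0.33) and mouse 612 lesion 2 (from base 24870312, mean 0.41). Both ended at base 72465449.

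Over all tumours the segmentation of chromosome 8 gave 108 segments as processed, with 16 gains in 10 tumours and 34 losses in 14, and 24 segments after GC correction, with 1 gain and 4 losses. With the correction, 18 of the 21 tumours formed a single segment from end to end. By mouse the gained share as processed was 20.3 ± 15.8% in the anti-PD1 group and 4.7 ± 10.8% in the CD-HFD group (SD, n = 7 mice each). After GC correction it was 7.1 ± 18.9% and 0%, all of it from mouse 612 lesion 2. The difference of 15.6 percentage points as processed was 4.2 at a threshold of 0.3, 3.0 with a doubled penalty and 1.2 with normexp. It was 32.8 within slide 1 and 20.4 within slide 2 and turned to -15.6 within slide 3, which holds a single CD-HFD mouse. The lost share was 4.4 ± 4.7% in anti-PD1 mice and 10.5 ± 19.4% in CD-HFD mice, and after the correction 0.39 ± 0.55% and 7.1 ± 18.9%, where the CD-HFD value came from mouse 1770 lesion 1 alone. The difference of the lost share as processed, -6.1 percentage points, turned to 1.1 without mouse 1770, 0.77 without the 2 tumours of low detection, 0.063 with normexp and 2.1 at a threshold of 0.3, so its direction is not settled.

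The SD over the windows of a tumour, which measures the variation along chromosome 8, covered nearly the same range in both groups. It was 0.14 to 0.28 in the anti-PD1 tumours and 0.13 to 0.28 in the CD-HFD tumours. By mouse it was 0.20 ± 0.047 (SD, n = 7) in anti-PD1 mice and 0.19 ± 0.043 (SD, n = 7) in CD-HFD mice. After GC correction both means were 0.130. Within slide 1 the means were 0.17 and 0.16, within slide 2 0.22 and 0.20, and within slide 3 0.21 and 0.26, in the same order.

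The proximal end of chromosome 8 stood below the rest of the chromosome in 21 of 21 tumours. This end holds the insulin receptor gene Insr, the C-type lectin gene Cd209a and Ccl25. It was measured from base 3111085 to base 4677932, where lost segments called in some of these same tumours also end. That it stood low, and by how much, therefore follows in part from how it was marked off. As processed, a lost segment of 1.5 Mb was called there in 11 tumours, 7 of 12 anti-PD1 and 4 of 9 CD-HFD, with means from -0.47 to -0.21. All 11 were among the 13 tumours of slides 2 and 3, whose design has 75 probes there, and 0 of the 8 tumours of slide 1, with 49 probes there, had the call. The end lay below the rest by 0.15 to 0.43 on the log2 scale, with a median difference of -0.28, and after GC correction the median difference was -0.22. By mouse the difference from the rest was -0.30 ± 0.059 in anti-PD1 mice and -0.27 ± 0.051 in CD-HFD mice (SD, n = 7 each), alike within this spread. After the correction the median was -0.13 on slide 1, with its own probe design, and -0.25 and -0.23 on slides 2 and 3. Segments from base 3151837 to base 4621879 or 4677932, with means from -0.26 to -0.25, were still called as losses in mouse 2097 lesion 2, mouse 608 lesion 3 and mouse 1109. All tumours share one reference pool, so a stretch that is higher in the reference and one that is lower in every tumour cannot be told apart.

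At the window from 22 to 23 Mb, which holds beta-defensin genes including Defb1, antimicrobial peptides of epithelia, the level was above 0 in 21 of 21 tumours, from 0.027 to 0.42. It was 0.23 ± 0.059 in anti-PD1 mice and 0.25 ± 0.083 in CD-HFD mice (SD, n = 7 mice each) and kept a median of 0.26 after GC correction. The probes within 500 kb of Defb1, which reach beyond this window, stood near 0. They read 0.055 ± 0.064 in anti-PD1 mice and 0.0073 ± 0.079 in CD-HFD mice, with tumours from -0.16 to 0.13. Their mean over all tumours was -0.0083 after GC correction, so the window value does not hold for all surroundings of Defb1. The window from 71 to 72 Mb, around Lpl, was the other one above 0 in all 21 tumours, with values from 0.16 to 0.52, and read 0.28 ± 0.080 and 0.24 ± 0.030 in the same order. At 22 to 23 Mb the groups were alike within their spread. At 71 to 72 Mb 3 of 7 anti-PD1 mice lay above the highest CD-HFD mouse, and the fitted difference was 0.051 (SE 0.048). The lowest anti-PD1 mouse, at 0.16, also lay below the lowest CD-HFD mouse, at 0.21, so the anti-PD1 mice spread wider at both ends.

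Of the 110 windows of chromosome 8, 0 differed between the groups at an adjusted p under 0.05 in limma with the mouse as a random block, fitted over all 2223 windows, of which 0% passed. At an unadjusted p under 0.05 there were 7 of 110, against 0.9% of all windows. With each mouse left out in turn that number ranged from 1, without mouse 612, to 17, without mouse 608. The smallest adjusted p on chromosome 8 was 0.999. The fitted difference of anti-PD1 minus CD-HFD was above 0 in 102 of 110 windows, with a median of 0.067 and a range of -0.045 to 0.17, where the median over all windows was -0.00049. Without mouse 1770 the median on chromosome 8 was 0.031, with 84 of 110 windows above 0, and without mouse 612 it was 0.045, with 92 of 110. Neighbouring windows share the level of the whole chromosome, and chromosome 8 was chosen for the difference of that level, so the numbers of windows above 0 and under the unadjusted threshold follow from the choice and add nothing to it. The median standard error of a window was 0.063.

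**Figure D4:**
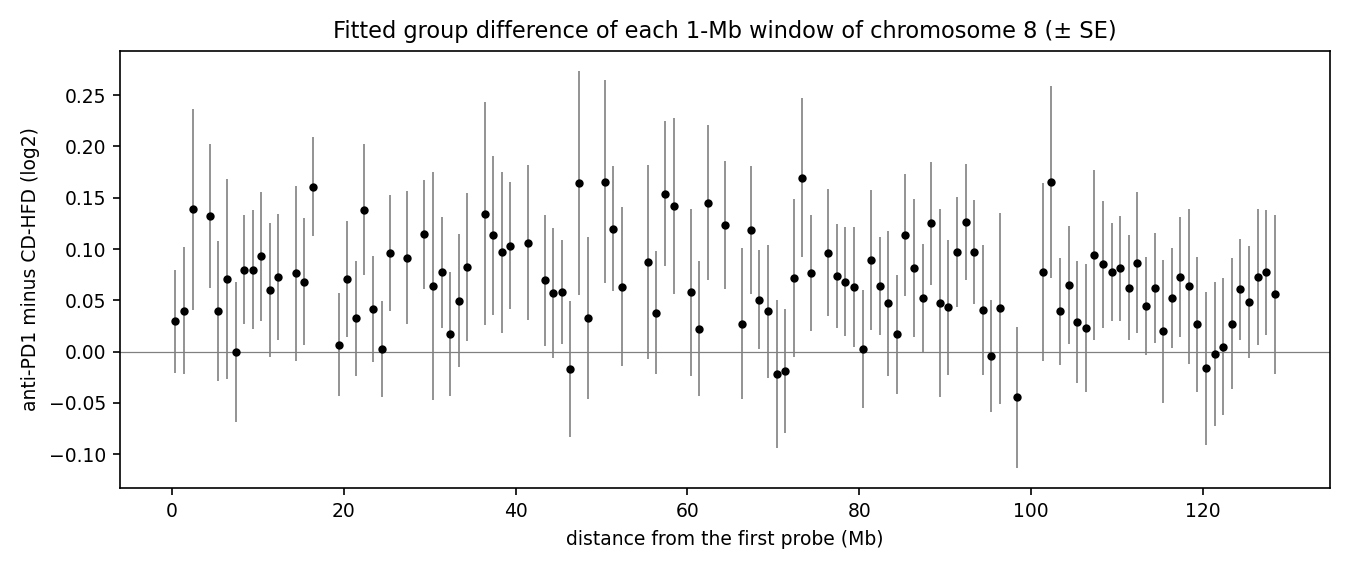
Fitted difference of anti-PD1 minus CD-HFD (log2, ± SE from limma) in each of 110 windows of 1 Mb of chromosome 8, against the distance from the first probe (Mb). Most windows lie above 0 (102 of 110) with a median of 0.067 against a median standard error of 0.063, and none passed the adjusted threshold.

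The window with the smallest p lay at 19 to 20 Mb, in the cluster of beta-defensin genes Defb3, Defb4, Defb7 and Defb14. It was picked for that p, on a chromosome chosen for its group difference. How far this window separates the groups follows from that choice. In the anti-PD1 mice it was lowest at 0.10, with a median of 0.18 and a highest value of 0.28. In the CD-HFD mice it ran from -0.10 over a median of 0.045 to 0.14, so that 5 of 7 anti-PD1 mice lay above the highest CD-HFD mouse. The fitted difference was 0.16 (SE 0.048) and its adjusted p 0.999 in limma. After GC correction the fitted difference was 0.15. Anti-PD1 mice then lay at 0.052 to 0.16 and CD-HFD mice at -0.12 to 0.030 without overlap, which held for 1 of the 110 windows of chromosome 8 and for 0.09% of all windows. As processed, counted over single tumours and not over mouse means, the groups overlapped in all 110 windows of chromosome 8. Of all windows, 0% were free of overlap as processed. Single tumours overlap more readily than mouse means, so the counts before and after the correction are not compared. After GC correction 10 of the 110 windows had an unadjusted p under 0.05 in limma, against 1.21% of all windows, and 0 passed after adjustment.

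The genes of chromosome 8 were followed through the mean of all probes within 500 kb of those named for the gene, which measures the surroundings of a gene and not the gene alone. Of 1164 such neighbourhoods on chromosome 8, 0 differed between the groups in limma (adjusted p under 0.05, 22973 genes tested, 0% of them past the threshold). At an unadjusted p under 0.05 there were 54, against 0.636% of all genes tested, a number that again follows from the choice of the chromosome. From 5 lists of 94 genes, 87 were tested, 0 passed, 3 had an unadjusted p under 0.05, and the median fitted difference was 0.059, where it was 0.052 over the genes of chromosome 8 and -0.011 over all genes.

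Among the genes of lipid metabolism and detoxification, 0 of 19 passed in either direction and the median fitted difference was 0.055. Lpl encodes lipoprotein lipase, which releases fatty acids from circulating triglycerides, and its probes span chr8:71406087-71428899 (mm9). Its surroundings were the highest of the list, 0.30 ± 0.10 (SD, n = 7) in anti-PD1 mice and 0.26 ± 0.045 (SD, n = 7) in CD-HFD mice. In mouse 1770 lesion 1, with the chromosome at -0.22, they stood at 0.20, the highest of the 87 listed genes in that tumour. Insr, at chr8:3151837-3254620 (mm9), was the lowest, with -0.29 ± 0.11 and -0.29 ± 0.075 (SD, n = 7) in the same order, within the low proximal end. Hsd17b2, a steroid dehydrogenase gene nearest to the distal end, read -0.11 ± 0.11 and -0.13 ± 0.073. After GC correction its values turned to 0.054 ± 0.084 and 0.017 ± 0.050. The carboxylesterase gene Ces1d, of a family that hydrolyses esters in the liver, had the largest fitted difference of the list, at 0.12 (SE 0.061, adjusted p 0.9999, limma).

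Of the plasma protein and clotting genes, 0 of 9 passed, with a median fitted difference of 0.065. Fgl1, which encodes a secreted liver protein that binds the T cell receptor LAG3, read 0.21 ± 0.068 in anti-PD1 mice and 0.11 ± 0.11 in CD-HFD mice (SD, n = 7), the highest of the list, with a fitted difference of 0.11 (SE 0.057). F7, the clotting factor VII gene nearest to the proximal end, read 0.017 ± 0.087 and -0.047 ± 0.10. The angiotensinogen gene Agt, nearest to the distal end and lowest, read -0.15 ± 0.10 and -0.20 ± 0.067.

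In the list of metal and oxygen handling, 0 of 7 genes passed, with a median fitted difference of 0.075. Mt1, which encodes a metallothionein that binds zinc, read -0.0056 ± 0.087 in anti-PD1 mice and -0.072 ± 0.051 in CD-HFD mice. Egln1, which encodes a prolyl hydroxylase that senses oxygen, read -0.13 ± 0.095 and -0.19 ± 0.076. The calreticulin gene Calr read -0.060 ± 0.13 and -0.051 ± 0.050, and its level rose from -0.045 to 0.14 over all tumours with the GC correction. With the correction Mt1 read 0.026 and Egln1 -0.0078 over all tumours.

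Of 36 growth and cancer genes tested, 0 passed, with a median fitted difference of 0.055 and 34 of 36 above 0, where 1066 of all 1164 neighbourhoods on chromosome 8 lay above 0. The surroundings of Tusc3, a gene of protein glycosylation, were the highest of the list, 0.33 ± 0.088 in anti-PD1 mice and 0.23 ± 0.13 in CD-HFD mice (SD, n = 7). Those of Prkaca, which encodes a catalytic subunit of protein kinase A, were the lowest, -0.29 ± 0.15 and -0.31 ± 0.086, and read -0.041 over all tumours after GC correction. Cul4a, a ubiquitin ligase scaffold gene nearest to the proximal end, read 0.022 ± 0.083 and -0.042 ± 0.11, and Itgb1, an integrin gene near the distal end, 0.16 ± 0.049 and 0.10 ± 0.093. Mtus1 and Mcph1, the latter a gene of the DNA damage response, had fitted differences of 0.13 (SE 0.055) and 0.12 (SE 0.056) with adjusted p of 0.9999 in limma. Vegfc, which encodes a growth factor of lymphatic vessels, had the highest surroundings of the 87 genes in mouse 612 lesion 2, at 0.69.

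The list of immune genes had 0 of 16 past the threshold and a median fitted difference of 0.060. Il15, which encodes a cytokine that sustains CD8+ T cells, was the highest, with 0.17 ± 0.084 in anti-PD1 mice and 0.088 ± 0.10 in CD-HFD mice (SD, n = 7). Irf8, which encodes a transcription factor of myeloid cells, read -0.22 ± 0.16 and -0.20 ± 0.15. After GC correction its values turned to 0.091 ± 0.088 and 0.079 ± 0.12. Cd209a, at the proximal end, was the lowest, -0.32 ± 0.11 and -0.34 ± 0.047, and remained at -0.19 over all tumours after GC correction. In mouse 612 lesion 2, 84 of the 87 listed genes lay above 0 (57 at 0.2 or more, median 0.26). In mouse 1770 lesion 1, 86 of 87 lay below 0 (46 at -0.2 or less, median -0.21). Of the 110 windows of the chromosome, 108 and 5 lay above 0 in these tumours, in the same order. The gene values are parts of the chromosome level, and the tumours were picked for that level. These counts therefore follow from it and say nothing about the listed genes.

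Among the chromosomes, chromosome 8 varied between tumours to a middling degree. The SD of its level over the 21 tumours was 0.096, the 12th largest of 20, where chromosome 15 had the largest at 0.15 and chromosome 2 the smallest at 0.053. After GC correction it was 0.10, the 9th largest. Levels past 0.2 in either direction were found on 5 chromosomes in more tumours than on chromosome 8, on 7 in as many and on 7 in fewer, with at most 4 tumours, on chromosome 1.

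**Figure D5:**
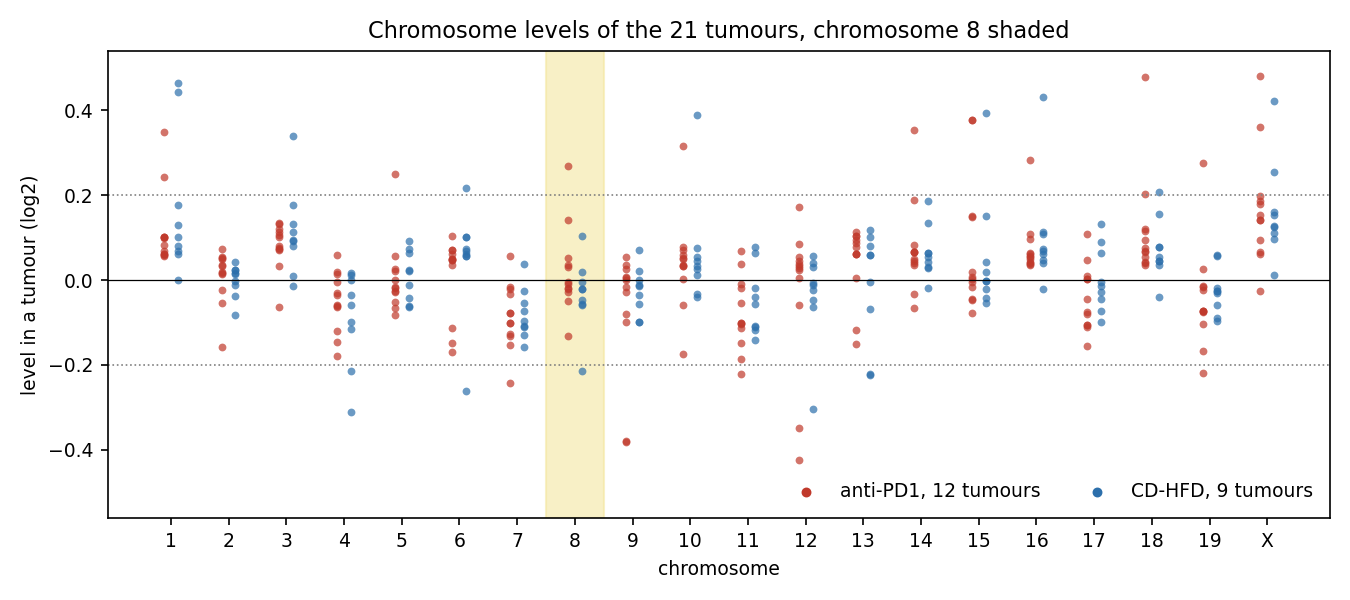
Level of each chromosome (log2 ratio) in the 12 anti-PD1 (red) and 9 CD-HFD tumours (blue), 1 point per tumour, with chromosome 8 shaded and dotted lines at ±0.2. Chromosome 8 has 2 tumours past the lines, at 0.27 and -0.22, and chromosome 1 has 4.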

How the data were processed

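For each of the 21 arrays the authors deposited the spot intensities written by Feature Extraction 11.0.1.1 (raw means, local backgrounds and processed signals, background-subtracted and dye-normalized) and a log10 ratio of reference (Cy5) over tumour (Cy3). Loess-normalized log2 ratios, deposited as 1 table, cover 11526 probes, 578 of them on chromosome 8. There was no dye swap. Positions are those of mm9 in the files, and how the assay was processed beyond the file headers is not given in the sources used here.

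From the processed intensities, log2 ratios (tumour over reference) were computed without control and outlier spots, spots of one probe were averaged, and each array was centred on its median. Saturated spots were kept. Windows of 1 Mb needed at least 5 probes. Segments were found by optimal partitioning (at least 10 probes, with a penalty of 3 times the product of noise variance and the natural log of the probe number), and an absolute mean of 0.2 called a gain or loss. Noise was 1.4826 times the median absolute deviation of neighbour differences, scaled to 1 probe. limma 3.58.1 in R 4.3.3 (lmFit, duplicateCorrelation by mouse, eBayes, Benjamini-Hochberg) was fitted genome-wide, and other steps used Python 3.11.15. For the GC correction, 4802 of 4808 probe sequences matched GRCm38 at 1 place; no coordinate was converted. Gene names were matched without regard to case, since the designs differ in it.

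The chromosome, the members of the lists and the tests were chosen with earlier results of these data known. An exact permutation test of the SD along chromosome 8 was run but is not reported, since that measure was part of the choice. Genes named are those nearest both ends of each list on the chromosome, those with the highest and lowest mean over the tumours, and, chosen after their values were seen, those with an unadjusted p under 0.05, those most extreme in a shifted tumour, and genes in named windows. Of 94 listed genes 7 had no probe named for them and were not analysed here. Tested on simulated windows, limma called 198 of 200 windows changed by 0.4, 13 unchanged windows, and 0 when none was changed. In a simulated chromosome 8 of 2828 probes, the segmentation called 100% of a whole-chromosome change of 0.3, 40% of one of 0.2, which lies at the threshold, and 0% of an unchanged chromosome. Simulated windows and probes were drawn independently, with no wave of GC content and no likeness between neighbours or lesions of a mouse. These rates therefore do not carry over to the real arrays, where the wave alone can bring calls as processed. No pair of arrays was identical, with a highest correlation of 0.90 on chromosome 8. The number of arrays limits the precision. Alternatives are listed with their effect at the end.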

Additional observations from a re-analysis of the deposited data

Results flagged for a closer look

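Within groups of 7 mice, mouse means that stood far from the others of their group were sought in 14 sets of values. Chromosome 8 was chosen by such values, so no rate expected by chance applies and the marked means are a description. The level of chromosome 8 in mouse 612, the mean of its 2 lesions, was 0.16, while the other anti-PD1 mice lay between -0.049 and 0.035. After GC correction it was 0.18, against 0.00020 to 0.045 in the others. The gained share in mouse 822 was 29.1%, while the other CD-HFD mice had 0 to 2.7%, and it was 0% after GC correction. The lost share in mouse 1770 was 53.6%, against 0 to 11.3% in the other CD-HFD mice, and 50% after GC correction, from lesion 1 alone, on an array of low detection whose part in the value was not tested.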

How the results depend on the processing

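No paired analysis was possible because no mouse gave tumours to both groups. The difference of the chromosome 8 level between the groups kept its direction under all alternatives. It was 0.037 to 0.056 under the 11 settings and 0.018 to 0.053 with each mouse left out in turn. With both GC correction and a mouse left out it was 0.026 to 0.057. This combination and the omission of the 2 tumours of low detection were chosen after seeing the data. Within slides 1, 2 and 3 the difference was 0.13, 0.0061 and 0.028. Chromosome 8 was chosen for this difference, and all alternatives reuse the same arrays, so the kept direction adds nothing to it. The counts of windows and gene neighbourhoods past the threshold were 0 under all alternatives, and the smallest adjusted p of a window ranged from 0.860 to 0.99998. The difference of the gained share, 15.6 percentage points, was 4.2 at a threshold of 0.3, 3.0 with a doubled penalty, 1.2 with normexp and 12.0 to 19.7 with each mouse left out. That of the lost share, -6.1, was -1.2 at a threshold of 0.1 and -0.92 with the median profile of all tumours subtracted, and it reversed to 2.1 at a threshold of 0.3, 0.063 with normexp and 0.77 without the tumours of low detection. With each mouse left out it ranged from -7.8 to 1.1, the latter without mouse 1770. The difference in SD along the chromosome, 0.016, reversed to -0.00056 with GC correction and to -0.0040 with the median profile subtracted, and was 0.0043 to 0.028 with each mouse left out. Around named genes, 42 of 46 alternative values kept their direction. Exceptions were Insr (-0.035), Hsd17b2 (-0.014) and Cd209a (-0.042) in the authors' loess-normalized ratios and Irf8 (-0.012) with probes within 1 Mb. The cause was not tested. Of 126 levels of single tumours under 6 alternatives, 124 moved by less than the SD over the tumours of their group (0.10 with anti-PD1 and 0.084 on CD-HFD), among them mouse 612 lesion 2, which went from 0.27 to 0.17 with normexp, and 0 called levels changed sign. The exceptions, with normexp, were mouse 1770 lesion 1 (-0.12) and mouse 2064 lesion 1 (-0.0011). Single probes, with a noise of 0.41 to 0.68, could not resolve a change of 0.2, and the number of arrays limits differences between the groups.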
